A study of Rattus norvegicus with 6 samples.

Results

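Head-to-head gene pairs, in which a gene on the minus strand and a gene on the plus strand begin within 1000 bp of each other and are transcribed away from each other, were examined in cultured cortical neural progenitors of the rat. The pairs were found from gene positions alone, as a minus-strand gene whose end coordinate lay 0 to 1000 bp before the start coordinate of a plus-strand gene on the same chromosome of the rn6 genome. This gave 573 pairs that were present in each of the 4 deposited gene tables, made of 1138 gene loci with 1134 distinct names, out of 17621 loci and 17337 names in all. The members were 6.46% of all loci and lay on 21 chromosomes.

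The cells came from cortices of Sprague Dawley rats at embryonic day 14, were untreated, were grown with bFGF and EGF, and were collected after the second passage, so they are a culture and not the tissue itself. PolyA-selected RNA of 2 biological replicates, A and B, was sequenced, with 2 technical libraries of each (A1 and A2, B1 and B2). The 2 Start-seq samples of the study, which record initiation sites, were not analysed here, so initiation inside the shared intervals is not described, and the pairs are defined by annotation. All samples belong to 1 condition, so that values are given with their spread, as mean ± SD over the 2 biological replicates, and without p-values.

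Promoters located between divergent genes are known as bidirectional promoters. In mammals they are often rich in CpG dinucleotides and poor in TATA boxes, and genes of DNA repair, mitochondria, chaperones and RNA processing are known among them. RNA polymerase II is assembled separately for each direction, and the amount of stable mRNA made in each direction further depends on elongation, splicing and mRNA decay.

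The bases that separate the partners are shown for 10 pairs, chosen to cover the highest pairs (*Rps28*-*Ndufa7*, *Mrpl49*-*Fau*, *Emc8*-*Cox4i1*), partners with related products (*Hspd1*-*Hspe1*, *Mrpl46*-*Mrps11*), equal partners (*Yipf3*-*Polr1c*, *Ncstn*-*Copa*), unequal partners (*Rps27a*-*Clhc1*), a very short interval (*Ddx28*-*Dus2*) and a pair with almost no mRNA (*Abcg5*-*Abcg8*). The sequences are from RefSeq promoters of the GRCr8 assembly, not of rn6. Each line reads 5′ to 3′ toward the first-named gene. It holds the bases between both annotated starts, or, for *Hspe1*, the 250 bases before its start, since the starts there lay 290 bp apart. In the 215 pairs with starts 2 to 250 bp apart in this assembly, the windows of both partners gave the same bases for the interval. Capitals mark matches to any of the 9 motifs searched on both strands, listed after the sequences.
Ndufa7 from Rps28 (GRCr8 chr7:15311334-15311445, plus strand): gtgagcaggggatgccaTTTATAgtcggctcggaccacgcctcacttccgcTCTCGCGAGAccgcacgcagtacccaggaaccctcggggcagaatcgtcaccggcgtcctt
Fau from Mrpl49 (GRCr8 chr1:212779328-212779512, plus strand): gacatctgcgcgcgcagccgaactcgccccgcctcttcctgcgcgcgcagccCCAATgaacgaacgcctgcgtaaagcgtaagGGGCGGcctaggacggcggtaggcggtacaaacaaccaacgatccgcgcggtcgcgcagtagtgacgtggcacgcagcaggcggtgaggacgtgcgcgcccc
Cox4i1 from Emc8 (GRCr8 chr19:65630236-65630382, plus strand): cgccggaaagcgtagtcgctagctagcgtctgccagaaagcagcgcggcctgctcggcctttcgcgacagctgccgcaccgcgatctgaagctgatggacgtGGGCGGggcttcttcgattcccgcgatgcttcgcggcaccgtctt
Hspe1 from Hspd1 (GRCr8 chr9:64084077-64084326, plus strand): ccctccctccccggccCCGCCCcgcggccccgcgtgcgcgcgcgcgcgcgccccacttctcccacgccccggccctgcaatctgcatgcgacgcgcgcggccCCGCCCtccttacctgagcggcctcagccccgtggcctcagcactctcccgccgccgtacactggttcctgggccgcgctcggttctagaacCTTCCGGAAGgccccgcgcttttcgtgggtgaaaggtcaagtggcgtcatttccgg
Mrps11 from Mrpl46 (GRCr8 chr1:142117031-142117263, plus strand): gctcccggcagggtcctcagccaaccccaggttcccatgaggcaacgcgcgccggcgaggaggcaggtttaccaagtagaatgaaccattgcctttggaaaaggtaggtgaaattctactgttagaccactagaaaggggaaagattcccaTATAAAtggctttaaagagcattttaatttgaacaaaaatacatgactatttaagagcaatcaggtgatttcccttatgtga
Polr1c from Yipf3 (GRCr8 chr9:22233178-22233317, plus strand): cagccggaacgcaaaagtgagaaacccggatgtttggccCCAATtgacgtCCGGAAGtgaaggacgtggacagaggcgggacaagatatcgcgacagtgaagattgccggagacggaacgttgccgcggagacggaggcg
Copa from Ncstn (GRCr8 chr13:87078840-87078867, plus strand): ctccccaaaCCGGAAGttcgtgtctgag
Rps27a from Clhc1 (GRCr8 chr14:107488942-107489063, minus strand): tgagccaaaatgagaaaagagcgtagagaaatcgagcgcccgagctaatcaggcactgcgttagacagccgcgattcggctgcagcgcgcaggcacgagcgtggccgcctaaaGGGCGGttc
Dus2 from Ddx28 (GRCr8 chr19:50821574-50821593, plus strand): atgcagaagaggcgcatggt
Abcg8 from Abcg5 (GRCr8 chr6:15717731-15717935, minus strand): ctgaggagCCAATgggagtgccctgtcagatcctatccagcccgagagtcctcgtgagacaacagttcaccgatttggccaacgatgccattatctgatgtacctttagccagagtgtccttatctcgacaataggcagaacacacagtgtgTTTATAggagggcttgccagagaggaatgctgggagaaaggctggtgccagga

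The motifs searched were the TATA box as TATAAA, the CCAAT box by the letters of its name, the GC box as GGGCGG, the site of ETS family factors as CCGGAAG, that of NRF1 as GCATGCGC, that of YY1 as AAGATGGCG, the CRE as TGACGTCA, the E-box as CACGTG and the site of BANP or ZBTB33 as TCTCGCGA. A match is a match of letters only, and binding was not examined here. The interval of *Ndufa7* and *Rps28* held the TCTCGCGA motif on both strands in 1 overlapping stretch, 61 and 59 bases before the *Ndufa7* start, and a TATAAA match that began 95 bases before it and pointed toward *Rps28*. In the interval of *Hspe1* and *Hspd1* the ETS motif was likewise present on both strands in an overlapping stretch, 56 and 53 bases before the *Hspe1* start. The 28 bases between *Ncstn* and *Copa* held 1 ETS match, whereas the 20 bases between *Ddx28* and *Dus2* held none of the 9 motifs. The intervals differed in CpG content, from 35 CpG in the 250 bases before *Hspe1* and 29 CpG in the 185 bases before *Fau* to 6 in the 233 bases of *Mrps11* and *Mrpl46* and 5 in the 205 bases of *Abcg8* and *Abcg5*.

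In rn6 the distance between the 5′ ends of the partners ranged from 18 to 998 bp with a median of 267 bp, and its quartiles were 152 and 444 bp. There were 63 pairs at up to 100 bp, 142 at over 100 to 200 bp, 110 at over 200 to 300 bp, 143 at over 300 to 500 bp and 115 at over 500 to 1000 bp. Short distances were therefore frequent within the limit of the rule, as is seen in the plot of distances. Of the 547 pairs without a microRNA gene, both partners had a RefSeq promoter in GRCr8 for 422 (77.1%). In this assembly all 422 were on opposite strands of 1 chromosome, and 415 (98.3%) had starts 0 to 1000 bp apart in head-to-head order, while 3 of the others overlapped. The partners were both protein-coding in 519 pairs, and 1 was a long noncoding RNA in 8 pairs. There were 26 pairs with a microRNA gene, of which 20 consisted of 2 microRNA genes. The partners of 559 pairs were in no other pair. An exception was *Rad17*, a checkpoint clamp loader subunit, which was paired with both *Taf9* and *Ak6* because these were listed with the same start.

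**Figure D1:**
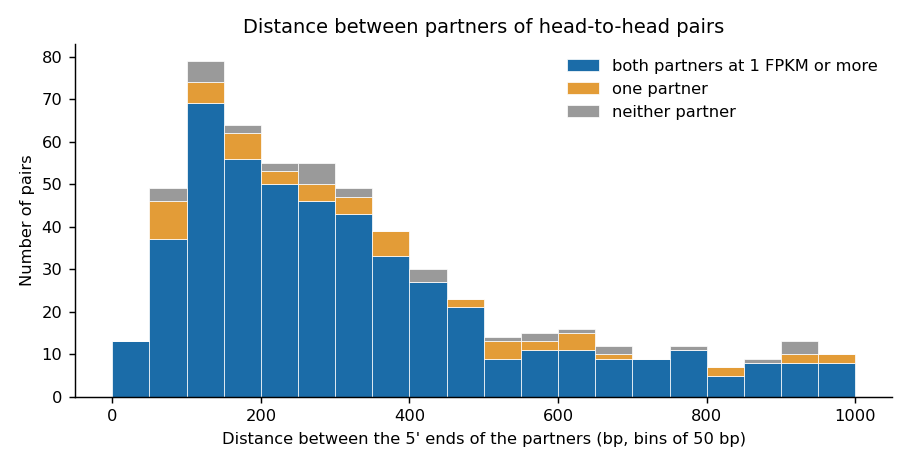
The number of pairs (vertical axis) is plotted against the distance between the 5′ ends of the partners in rn6 (horizontal axis, bp, bins of 50 bp), with colours for pairs with both, 1 or neither partner at a mean of 1 FPKM or more. The median distance was 267 bp, and pairs with both partners at this level made up most of every distance class.

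The depth of the libraries, given as the coverage that corresponds to 1 FPKM, was between 22.7 and 24.4 for A1, A2 and B1 and was 6.83 for B2. FPKM is the number of fragments scaled to transcript length and library depth. The 8 markers of neural progenitors were all above 1 FPKM, and so were 4 markers of neurons, 3 of astrocytes and 3 of the oligodendrocyte lineage. The astrocyte markers, *Gfap* among them, summed to between 577 and 1028 FPKM. The summed level of 7 mesenchymal and meningeal markers was 642 and 621 FPKM in A1 and A2 and 2430 and 2928 FPKM in B1 and B2, while those of the progenitor markers were 20869 and 22933 FPKM in A1 and A2 and 9937 and 10656 FPKM in B1 and B2. Most of the progenitor sum was *Fabp7* and *Vim*, and the other 6 markers add little to it. The oligodendrocyte lineage markers summed to 80.3 and 82.5 FPKM in A1 and A2 and to 169 and 115 FPKM in B1 and B2. The 6 markers of microglia, blood and endothelium were each at a mean under 1 FPKM. In bulk RNA, fewer cells of a type and less RNA per cell cannot be told apart. The sources used here do not state whether strand was recorded, so that reads where the transcripts of close or overlapping partners meet cannot be told apart either.

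Most members of head-to-head pairs were expressed. A mean of 1 FPKM or more was reached by 1023 of 1138 members (89.9%, or 89.8% by A alone and 89.1% by B) and by 58.0% of the 16483 loci in no such pair. At 10 FPKM or more the shares were 65.1% and 36.2%, and at 100 FPKM or more they were 9.84% and 5.82%. The median was 18.9 FPKM for members and 2.98 FPKM for the other loci. Among loci at 1 FPKM or more it was 22.8 FPKM for members and 15.9 FPKM for the others. Without microRNA genes 92.9% of members and 59.2% of the other loci reached 1 FPKM. The differences in the share at 1 FPKM and in the median over all members and all other loci were far larger than those between the replicates. The other values were not taken by replicate, and no test was made of any of these differences.

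Taken singly, 508 of the minus-strand partners (88.7%) and 516 of the plus-strand partners (90.1%) were at a mean of 1 FPKM or more. Both partners were in 484 pairs (84.5%, or 84.3% of pairs by the values of A alone and 83.1% by those of B), 1 partner in 56 pairs (9.77%) and neither in 33 pairs (5.76%). Both reached 10 FPKM in 266 pairs (46.4%) and 100 FPKM in 10 pairs. Where the minus-strand partner was at 1 FPKM or more, the plus-strand partner was as well in 95.3% of 508 pairs. Where it was below, the plus-strand partner reached 1 FPKM in 49.2% of pairs, or in 67.4% with microRNA genes left out.

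The amounts of mRNA from the partners were weakly related. Across all pairs the Spearman correlation of the partners' mean FPKM was 0.256 (0.262 for A alone and 0.254 for B), and it was 0.148 across the 484 pairs with both partners at 1 FPKM or more. It is a description across pairs, which share the same 4 libraries, and it was 0.182 without microRNA genes. Among the 484 pairs the median absolute log2 ratio of the partners, on the log2(FPKM + 1) scale, was 1.34 with the ratio averaged over the replicates, and over the same pairs it came to 1.40 for A and 1.38 for B. The partners were within 2-fold of each other in 180 pairs (37.2%) and at least 8-fold apart in 89 pairs (18.4%).

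These ratios were reproducible. The Spearman correlation of the log2 ratio between replicates A and B was 0.986 over the 484 pairs, and the median SD of the ratio over the replicates was 0.17. In 436 pairs (90.1% of the 484) the same partner was higher in all 4 libraries. It was the minus-strand partner in 222 pairs and the plus-strand partner in 214, so neither strand was favoured in number. In 254 pairs the difference was at least 2-fold in every library.

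**Figure D2:**
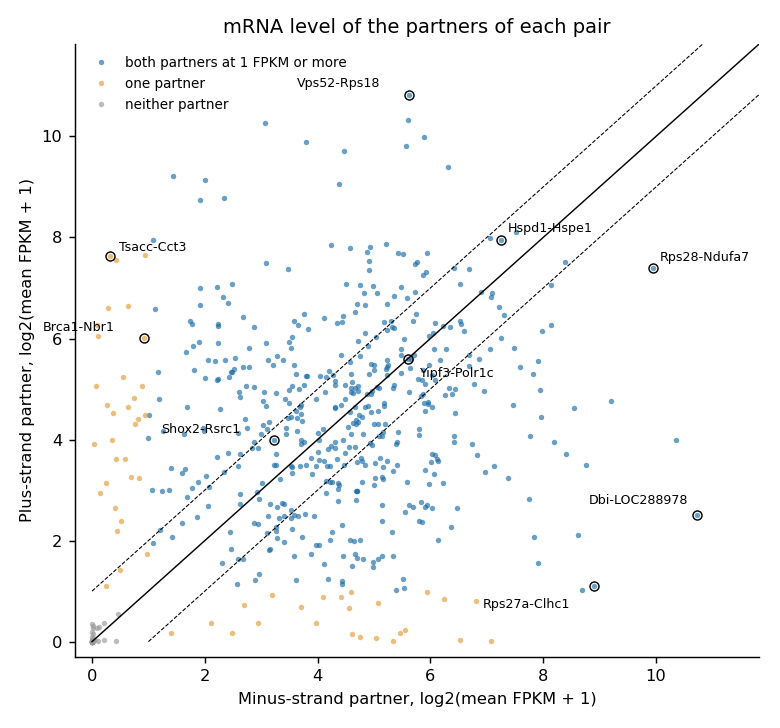
Each point is 1 of the 573 pairs, with the mean FPKM of the minus-strand partner on the horizontal axis and that of the plus-strand partner on the vertical axis, both as log2(FPKM + 1). The solid line marks equal levels, dashed lines mark a difference of 1, colours give the number of partners at 1 FPKM or more, and circled pairs are named; points spread widely on either side of the line.

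The 10 pairs with the highest geometric mean of the partners included genes of protein synthesis, mitochondria and redox defence, and their levels per library are plotted in the dot plot of these pairs. *Rps28*, a protein of the small cytosolic ribosomal subunit, and *Ndufa7*, a subunit of respiratory complex I, lay 113 bp apart at chr7:18683440-18683553 of rn6. *Rps28* was at 778, 969, 1183 and 1016 FPKM in A1, A2, B1 and B2, a mean of 987 ± 160 FPKM (SD, n = 2). *Ndufa7* was at 155, 185, 184 and 144 FPKM, a mean of 167 ± 4.05 FPKM. The log2 ratio of the plus-strand to the minus-strand partner was -2.54 ± 0.27, so both were high, with the ribosomal gene the higher of them in each library.

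In 5 of the other pairs of this group the levels were markedly unequal, with 1 abundant partner and 1 at a moderate level. *Rps18*, of the small ribosomal subunit, was at 1553, 1762, 2092 and 1871 FPKM, a mean of 1820 ± 229 FPKM, while *Vps52*, a subunit of a vesicle tethering complex 287 bp away, had a mean of 48.1 ± 3.09 FPKM. *Fau*, which encodes ribosomal protein S30 fused to a ubiquitin-like protein, had a mean of 1275 ± 158 FPKM, against 47.6 ± 3.10 FPKM for the mitochondrial ribosomal gene *Mrpl49*. *Trappc4*, of a vesicle tethering complex, and *Rps25*, of the small ribosomal subunit, had means of 58.3 ± 6.71 and 1014 ± 191 FPKM. The nuclear ribonuclease subunit gene *Rnaseh2a* and the peroxiredoxin gene *Prdx2* showed the same pattern, with means of 46.2 ± 0.0969 and 896 ± 55.1 FPKM. *Emc8*, of the endoplasmic reticulum membrane complex, and *Cox4i1*, a subunit of cytochrome c oxidase, had means of 78.1 ± 1.41 and 670 ± 43.5 FPKM. In all 5, the higher partner was the plus-strand gene, and the ranges of the partners over the 4 libraries did not overlap.

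The remaining 4 pairs of the group were closer to balance. *Hspd1* and *Hspe1* encode the mitochondrial chaperonin Hsp60 and its co-chaperonin Hsp10, which work as 1 machine, and lay 290 bp apart at chr9:61690956-61691246. *Hspd1* was at 157, 162, 136 and 148 FPKM and *Hspe1* at 242, 286, 220 and 246 FPKM. The log2 ratio was 0.72 ± 0.01, and *Hspe1* was higher in each library. *Prdx5*, a peroxiredoxin, and *Trmt112*, an activator of methyltransferases, had means of 182 ± 0.102 and 274 ± 12.8 FPKM. For *Slc3a2*, the heavy chain of amino acid transporters, and *LOC100912041* the means were 333 ± 37.2 and 181 ± 19.1 FPKM, and for *Mea1* and *Klhdc3* they were 280 ± 43.0 and 132 ± 24.0 FPKM. In these 4 pairs the absolute log2 ratio was between 0.58 and 1.08.

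**Figure D3:**
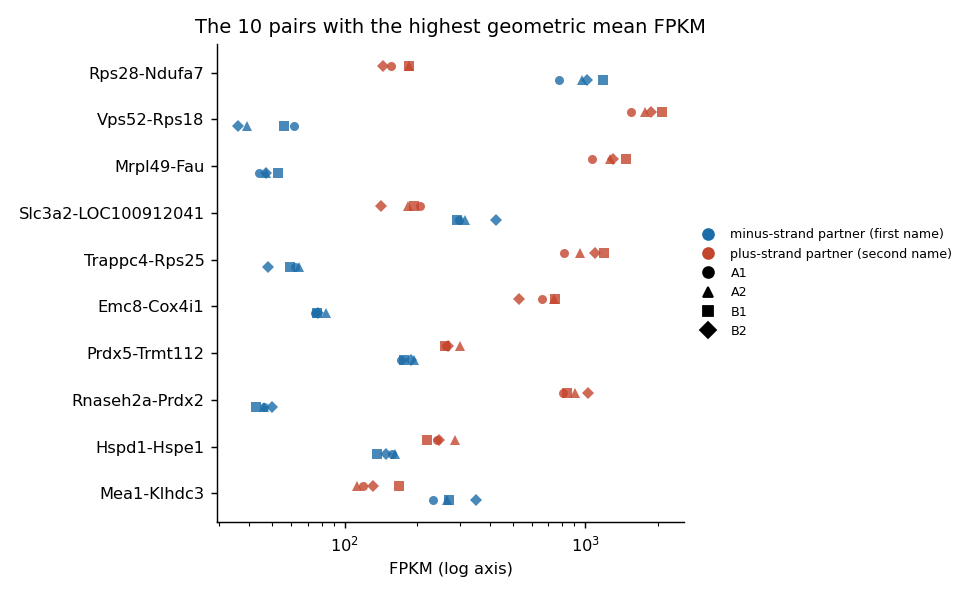
FPKM in each of the 4 libraries (horizontal log axis; marker shapes give the library) for both partners of the 10 pairs with the highest geometric mean, with the minus-strand partner in blue and the plus-strand partner in red. *Rps18* and *Vps52* lay far apart (means of 1820 and 48.1 FPKM), whereas *Hspd1* and *Hspe1* lay close together (151 and 248 FPKM).

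Among pairs with both partners at 10 FPKM or more, the 5 with the most equal levels were taken, and a link of equality with function was not tested. *Yipf3*, a Golgi membrane protein, was at 48.3, 51.9, 39.9 and 49.7 FPKM, and *Polr1c*, a subunit of RNA polymerases I and III located 141 bp away at chr9:17120618-17120759, was at 46.5, 47.7, 50.8 and 43.4 FPKM. The ranges of the partners overlapped, and the log2 ratio was -0.01 ± 0.11. *Ino80e*, of a chromatin remodelling complex, and *Hirip3*, which binds histones, were at 30.3 ± 1.89 and 30.0 ± 1.34 FPKM. The other pairs of this kind were *Rab2b*-*Tox4* (32.3 and 31.8 FPKM), *Ncstn*-*Copa* (log2 ratio of 0.03) and *Gpalpp1*-*Nufip1* (22.9 and 22.5 FPKM). *Ncstn*, a subunit of gamma-secretase, and *Copa*, of the vesicle coat COPI, were equal only on average, since the log2 ratio had an SD of 0.36 and *Ncstn* was at 55.9 FPKM in B1 against 77.3 to 80.7 FPKM in the other libraries.

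Among pairs with both partners at 10 FPKM or more, the 4 distinct pairs with the shortest distances each had the same partner higher in every library. Their absolute log2 ratios were between 0.73 and 1.14, around the median of 0.97 for all pairs at this level. The next pair, *Ncstn*-*Copa* at 29 bp, is among the equal pairs above. The shortest interval was 19 bp, between *Mrto4*, a ribosome assembly factor, and *Emc1*, of the endoplasmic reticulum membrane complex (chr5:157820889-157820908). *Mrto4* was at 26.6, 28.1, 27.8 and 22.9 FPKM and *Emc1* at 11.3, 11.1, 11.5 and 11.6 FPKM, with a log2 ratio of -1.14 ± 0.10. *Ddx28*, a mitochondrial RNA helicase, and *Dus2*, which modifies tRNA, were 21 bp apart and had means of 10.5 ± 2.39 and 20.9 ± 2.74 FPKM. *Cox15*, needed for heme A synthesis, and *Cutc* were 27 bp apart and had means of 21.3 ± 4.18 and 12.3 ± 1.45 FPKM. *Polr2i*, a subunit of RNA polymerase II, and *Tbcb*, a tubulin folding cofactor, were also 27 bp apart and were listed at 2 places of chromosome 1 in mirror order. Their means were 28.6 and 56.6 FPKM at one place and 28.1 and 56.0 FPKM at the other. Such near-identical copies can share reads, and their levels are uncertain to that extent.

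In 40 pairs (6.98%), 36 of them without a microRNA gene, 1 partner was at 10 FPKM or more and the other under 1 FPKM. The higher partner was on the minus strand in 18 and on the plus strand in 22. The medians of the higher and the lower partners were 31.9 and 0.405 FPKM, the lower partner was under 0.1 FPKM in 9 pairs, and the median distance was 346 bp. Among pairs whose higher partner was at 10 FPKM or more, 5 had the largest ratios on the log2(FPKM + 1) scale, which lowers ratios to partners near 0. They were *Dbi*-*LOC288978*, *Rps27a*-*Clhc1*, *Tssk6*-*LOC100911483*, *Rpl35a*-*Iqcg* and *Tsacc*-*Cct3*. *Dbi*, which encodes the acyl-CoA-binding protein, was at 1962, 2250, 1472 and 1093 FPKM and *LOC288978*, 106 bp away, at 5.12, 5.48, 3.42 and 4.61 FPKM. The log2 ratio was -8.19 ± 0.27. *Rps27a*, which encodes ubiquitin fused to ribosomal protein S27a, was at 367, 399, 510 and 644 FPKM, and *Clhc1*, 123 bp away, at 1.15 ± 0.403 FPKM with its lowest value in B2. Here the partners differed in the same direction in every library, at a log2 ratio of -7.79 ± 0.69.

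The low partner was a gene known from the testis or from flagella in the other 3 of these pairs. *Cct3*, a subunit of the cytosolic chaperonin TRiC, was at 183, 195, 212 and 200 FPKM, and *Tsacc*, which encodes a co-chaperone of a testis kinase, was at 0.249, 0.276, 0.163 and 0.327 FPKM. That testis kinase, *Tssk6*, was itself the low partner of another pair, with a mean of 1.71 ± 0.302 FPKM beside 597 ± 4.01 FPKM for *LOC100911483*. *Iqcg*, known from sperm flagella, had a mean of 1.02 ± 0.344 FPKM beside 413 ± 78.0 FPKM for the large-subunit ribosomal gene *Rpl35a*.

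Further pairs with an unequal pattern, picked after their values were seen, show the range of functions. *Srsf7*, a splicing factor, had a mean of 134 ± 18.8 FPKM and *Ttc39d* 0.0127 ± 0.0155 FPKM. *Gas5*, a long noncoding RNA that hosts small nucleolar RNAs, had a mean of 186 ± 9.11 FPKM beside 0.338 ± 0.0818 FPKM for *Zbtb37*. *Ssrp1*, a subunit of the histone chaperone FACT, was at 96.3 ± 10.7 FPKM, whereas *P2rx3*, an ATP-gated channel of sensory neurons, 168 bp away, was at 0.211 ± 0.0510 FPKM. Similarly, *Sympk*, of the mRNA 3′ end processing machinery, was at 32.2 ± 0.941 FPKM beside 0.0517 ± 0.0347 FPKM for *Foxa3*, a liver transcription factor. *Ccs*, the copper chaperone of superoxide dismutase, was at 90.6 ± 7.16 FPKM and *Ccdc87*, 159 bp away, at 0.0192 ± 0.0206 FPKM.

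Neither partner reached 1 FPKM in 33 pairs, of which 14 held no microRNA gene, and in all 14 each partner was under 0.5 FPKM. They included *Abcg5* and *Abcg8*, which encode the subunits of the sterol transporter of liver and intestine, at 0.0719 ± 0.0165 and 0.0130 ± 0.00416 FPKM. *Col4a4* was listed at 0 in every library and its partner *Col4a3* had a mean of 0.0231 ± 0.00867 FPKM, and both encode chains of the collagen of kidney basement membranes. *Bhmt2* and *Dmgdh*, 125 bp apart, are genes of betaine metabolism in the liver, and their means were 0.00477 and 0.00509 FPKM. *Dnase2b*-*Uox*, *Plcz1*-*Capza3*, *Duox2*-*Duoxa2* and *Hist1h2aa*-*Hist1h2ba* were in the same group. Of the 39 microRNA genes among the members, 2 reached 1 FPKM (*Mir504* and *Mir425*), and 18 were at 0 in every library. PolyA selection does not capture mature microRNAs, so these values say nothing of them.

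Of 17 pairs of textbook head-to-head or closely linked genes looked up by name, 12 were members. The exceptions were *Surf1*-*Surf2* and *Ppat*-*Paics*, which did not meet the rule with the coordinates of these tables, and *Col4a1*-*Col4a2*, *Prkdc*-*Mcm4* and *Fen1*-*Tmem258*, of which *Col4a2*, *Prkdc* and *Tmem258* had no row under that name. *Atm*, the kinase that responds to DNA double-strand breaks, was at 4.22, 3.74, 1.64 and 2.56 FPKM, and *Npat*, a coactivator of histone genes 556 bp away, was at 10.3, 11.0, 6.28 and 7.44 FPKM. Both partners had their lower values in replicate B, by -0.68 and -0.57 on the log2 scale, which was below the difference of 1 required for a call. *Brca1*, of homologous recombination, was at 1.02, 0.883, 0.689 and 0.940 FPKM, far below the autophagy receptor *Nbr1* at 67.6, 64.6, 64.4 and 57.8 FPKM. This pair, with 995 bp between the 5′ ends, was near the limit of the rule.

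*Psmb9* and *Tap1* serve antigen presentation as an immunoproteasome subunit and a peptide transporter. *Psmb9* was at 12.8, 13.7, 20.8 and 31.3 FPKM and *Tap1* at 5.85, 6.48, 8.46 and 10.6 FPKM. For both, each library of replicate B was above each library of replicate A, with differences of 0.93 and 0.55 that were under the same limit. The share of all loci with such a separation was not computed.

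Further textbook pairs were unequal to varying degrees. *Ranbp1*, a regulator of nuclear transport, was at 234 ± 3.90 FPKM and its partner *Trmt2a*, a tRNA methyltransferase, at 36.1 ± 6.91 FPKM. *Psmd13*, of the proteasome lid, and the mitochondrial deacetylase gene *Sirt3* were at 91.4 ± 5.76 and 24.4 ± 6.45 FPKM. *Pdcd10*, a gene of cerebral cavernous malformation, had 54.4 ± 0.907 FPKM and the neuronal serpin gene *Serpini1* 4.22 ± 0.844 FPKM. *Mrps12* and *Sars2*, both for mitochondrial translation, were at 34.6 ± 0.246 and 9.95 ± 1.67 FPKM.

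Some functional groups had many members in head-to-head pairs and others few, beside 6.46% of all loci. Of 71 mitochondrial ribosomal genes 18 were members (25.4%), of 33 aminoacyl-tRNA synthetase genes 8 (24.2%), of 85 genes of DNA replication and repair 18 (21.2%) and of 98 genes of oxidative phosphorylation 19 (19.4%). The shares were 16.9% of 65 splicing genes, 16.3% of 49 proteasome genes, 14.5% of 83 chaperone genes, 12.1% of 58 cell cycle genes and 9.48% of 116 loci named as cytosolic ribosomal genes. The share was 11.4% of 35 histone genes, 10.7% of 28 collagen genes and 8.37% of 466 microRNA genes. At the other end, 5 of 186 zinc finger genes (2.69%) and 0 of 96 genes of the neural lineage were members. No test was made of these shares, and the lists were assembled by name. The ribosomal list therefore holds the kinase gene *Rps6kb1* and the collagen list the lipid transfer gene *Col4a3bp*. The oxidative phosphorylation list likewise holds *Cox15*, needed for heme A synthesis, and the assembly factor genes *Ndufaf3*, *Ndufaf5*, *Ndufaf7* and *Sdhaf2*.

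All 18 mitochondrial ribosomal members were at 1 FPKM or more, and their median of 46.1 FPKM was near that of the whole list (45.7 FPKM). The highest were *Mrpl41* (125 FPKM), *Mrpl43* (84.2 FPKM) and *Mrps11* (60.5 FPKM). *Mrps11* faced another gene of the same list, *Mrpl46*, which was at 24.0, 27.3, 24.2 and 25.6 FPKM, while *Mrps11* was at 57.8, 63.1, 64.9 and 56.2 FPKM. Their log2 ratio of 1.23 ± 0.03 changed little between the replicates. In oxidative phosphorylation, the highest members were *Cox4i1* (670 FPKM), *Atp5j* of the ATP synthase (435 FPKM, beside 10.3 FPKM for the transcription factor gene *Gabpa*) and *Ndufa11* of complex I (339 FPKM, beside 12.1 FPKM for *Vmac*).

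*Hars* and *Hars2*, the cytosolic and mitochondrial histidyl-tRNA synthetases, faced each other 144 bp apart. *Hars* was at 49.7, 53.3, 50.8 and 64.2 FPKM and *Hars2* at 13.5 to 21.3 FPKM, without overlap. Further pairs with both partners in 1 list included *Hspd1*-*Hspe1*, *Col4a4*-*Col4a3* and the histone pairs *Hist1h2aa*-*Hist1h2ba* and *Hist3h2bb*-*Hist3h2a*. The latter were at 4.59 ± 1.95 and 39.4 ± 3.81 FPKM. Replication-dependent histone mRNAs mostly lack a polyA tail, so polyA selection captures few of them.

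Related names were found in 14 pairs, matched by the first 3 or more letters of their symbols, among them genes whose products act together. The 20 pairs of 2 microRNA genes, whose symbols also share 3 letters, are not counted here. *Hadhb* and *Hadha*, the subunits of the mitochondrial trifunctional protein of fatty acid oxidation, faced each other. *Hadhb* was at 90.8, 102, 87.0 and 85.2 FPKM and *Hadha* at 128, 138, 137 and 134 FPKM, with a log2 ratio of 0.55 ± 0.13. *Hadha* was higher in each library, as *Hspe1* was over *Hspd1*, but both pairs were within 2-fold. *Safb* and *Safb2*, paralogs that bind nuclear matrix DNA and RNA, were at 95.9 ± 12.0 and 69.9 ± 6.17 FPKM. The F-box genes *Fbxo44* and *Fbxo2* were less alike, at 29.2 ± 2.22 and 162 ± 18.1 FPKM, as were *Wdr83* and *Wdr83os* at 39.9 ± 0.466 and 114 ± 0.434 FPKM.

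Further examples from the lists of tRNA synthetases and chaperones were *Kars*, *Yars* and *Cct5*. *Kars*, the lysyl-tRNA synthetase, was at 75.9 ± 15.4 FPKM and *Terf2ip*, of the telomere complex shelterin, at 28.6 ± 1.96 FPKM. *Yars*, the tyrosyl-tRNA synthetase, was at 29.6 ± 2.88 FPKM and *S100pbp* at 5.07 ± 0.146 FPKM. *Cct5* of the chaperonin TRiC was at 148, 161, 196 and 192 FPKM, and *Fam173b*, 218 bp away, at 26.6, 26.9, 26.5 and 18.8 FPKM. *Rmrp*, the RNA of RNase MRP, was the only member of that gene type and faced *Parp2*, a DNA repair enzyme, at 27.5 ± 1.51 FPKM.

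For DNA replication and repair the highest members were *Apex1*, the abasic site endonuclease (130 FPKM, facing the tRNA modification gene *Osgep* at 30.7 FPKM), *Mcm7* of the replicative helicase (85.4 FPKM, facing *Ap4m1* at 21.9 FPKM) and *Rpa3* of the single-strand binding complex (66.1 FPKM, facing *Glcci1* at 8.97 FPKM). Splicing genes were represented by *Snrpd2* (530 FPKM, facing *Qpctl* at 19.9 FPKM), *Srsf2* (291 FPKM, facing *Mfsd11* at 14.5 FPKM) and *Lsm7* (202 FPKM, facing *Sppl2b* at 44.8 FPKM). Proteasome members included *Psma7* (392 FPKM, facing *Ss18l1* at 3.32 FPKM) and *Psma2* (240 FPKM, facing the mitochondrial ribosomal gene *Mrpl32* at 46.0 FPKM). By contrast, *Anapc2*, of the anaphase-promoting complex, at 78.6 ± 5.55 FPKM, was close to its partner *Ssna1* at 66.5 ± 5.67 FPKM, only 57 bp away. The same held for *Smc1a* of cohesin (31.3 ± 2.46 FPKM) and its partner *Ribc1* (33.2 ± 8.41 FPKM).

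Head-to-head pairs were compared with 3 other kinds of neighbours found in the same tables: 785 head-to-head neighbours over 1000 and up to 10000 bp apart, and, at up to 1000 bp, 479 tail-to-tail and 413 same-strand neighbours. Both partners were at 1 FPKM or more in 84.5% of head-to-head pairs and in 55.3%, 72.9% and 50.1% of these classes. Without microRNA genes the shares were 88.3%, 59.8%, 75.7% and 70.4%. One partner at 10 FPKM or more with the other under 1 FPKM was seen in 6.98% of head-to-head pairs and in 17.8%, 15.0% and 13.6% of the others. The first share was highest for head-to-head pairs also by the values of A (84.3%) or B (83.1%) alone. The differences between the classes were not tested, and the classes share genes and differ in gene types.

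Among neighbours with both partners at 1 FPKM or more, the median absolute log2 ratio was 1.34 for head-to-head pairs and 1.59, 1.83 and 1.69 for the other classes. The partners were within 2-fold of each other in 37.2% against 30.9%, 30.4% and 33.3%. The Spearman correlation of levels in the same neighbours was 0.148 for head-to-head pairs and 0.066, -0.014 and -0.027 for the others, all of them weak. Across all neighbours, low ones included, the order was different, with 0.256 for head-to-head pairs, 0.342 for distant head-to-head neighbours, 0.132 for tail-to-tail and 0.571 for same-strand neighbours. The last fell to 0.038 without microRNA genes, so the order of the classes by this correlation rested on which loci entered.

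**Figure D4:**
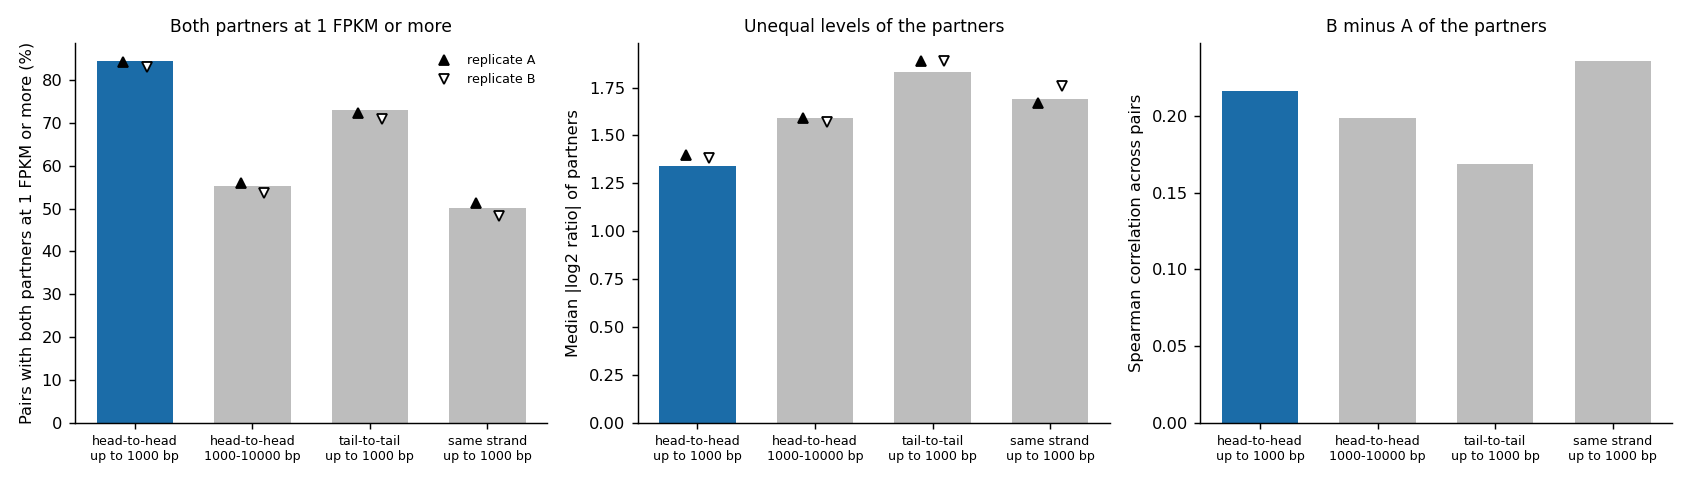
Bars compare head-to-head pairs (blue) with 3 other classes of neighbours (grey) by the share of pairs with both partners at 1 FPKM or more (left, %), the median absolute log2 ratio of partners both at 1 FPKM or more (middle) and the Spearman correlation of the partners' B minus A differences (right); triangles in the left and middle panels are replicates A and B, and middle bars average the log2 ratio of both replicates before the median. Head-to-head pairs had the highest share (84.5%) and the lowest median ratio (1.34), and the correlations in the right panel were between 0.169 and 0.236.

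Within head-to-head pairs, the same values were taken by distance. The share with both partners at 1 FPKM or more was 81.0% at up to 100 bp, 87.3%, 87.3% and 87.4% in the next bins, and 76.5% at over 500 to 1000 bp. The median absolute log2 ratio was 1.16 at up to 100 bp and between 1.32 and 1.50 in the other 4 bins. The Spearman correlation of levels was 0.226, 0.233, 0.388, 0.227 and 0.228 from the shortest to the longest bin, and 0.147, 0.201, 0.336, 0.094 and 0.144 without microRNA genes. That of the partners' B minus A differences, among pairs with both partners at 1 FPKM or more, was 0.173, 0.143, 0.109 and 0.208 up to 500 bp and 0.464 at over 500 to 1000 bp.

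Few members differed between the replicates. A locus was called different when its mean was at least 1 FPKM, the replicate means differed by at least 1 on the log2(FPKM + 1) scale, and the libraries of A and B did not overlap. This was met by 12 of 1023 members (1.17%), beside 6.17% of all 10584 loci that could be called. Of the members 6 were higher in B (0.587%, beside 4.76% of all loci) and 6 were higher in A (0.587%, beside 1.41% of all loci). Without library B1, which leaves only the shallow B2 for replicate B, 25 members were called (2.44%, beside 8.52% of all loci), and without A1, A2 or B2 there were 9, 14 and 10 (0.881%, 1.37% and 0.981%, beside 6.23%, 6.50% and 5.47% of all loci). The median absolute difference was 0.18 for members and 0.24 for all loci.

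Of the members called higher in replicate B, *Shox2*, a homeobox gene of limb and heart development, was at 3.97 and 3.38 FPKM in A1 and A2 and at 12.4 and 13.5 FPKM in B1 and B2, a difference of 1.58. Its partner *Rsrc1*, a splicing-related gene 115 bp away, was at 12.0, 12.2, 15.4 and 19.5 FPKM, a difference of 0.49. *Cryab*, a small heat shock protein, was at 26.8, 30.8, 59.4 and 92.6 FPKM (1.37), and its partner *Hspb2*, of the same protein family, was at 1.35, 1.60, 2.67 and 3.02 FPKM (0.64). In both pairs the partner differed in the same direction to a lesser extent. *Loxl3*, which crosslinks collagen, was called as well (1.19), and its partner *Dok1* was near the limit (0.92). For *Parp3* (1.35) and *Sobp* (1.15, not called without B2) the partners *Rrp9* and *LOC688390* differed by -0.04 and -0.15. The largest difference was that of *LOC100909539*, at 15.0, 16.6, 53.0 and 71.6 FPKM (1.92), beside 0.27 for *Sema5a*. The summed mesenchymal and oligodendrocyte lineage markers were also higher and the summed progenitor markers, mostly *Fabp7* and *Vim*, lower in B, as given above, and their part in these differences was not tested.

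Of those higher in replicate A, *Fam227a* was at 70.3, 34.8, 14.7 and 9.04 FPKM, a difference of -2.06, and its partner *Cby1*, a protein of the ciliary base, was at 131, 149, 99.4 and 93.8 FPKM (-0.53). *Pcsk4* (-1.30), *Mir504* (-1.24), *Slc25a27* (-1.08) and *Sts* (-1.05) followed, with partners at -0.49, -0.46, -0.14 and -0.24. *Pcsk4*, *Slc25a27*, *Sts* and *Tmco3* were no longer called without A1, and *Sts* was not called without B1. *Mir504* is listed here as a precursor locus 134 bp from *Repin1*. *Tmco3* was at 9.70, 9.52 and 8.61 FPKM in A1, A2 and B1 and listed at 0 in B2, and it was no longer called without B2. It is listed a second time in mirror order, with *Dcun1d2* beside it at both places, and at 0.0862 FPKM in B2 there. *Tmco3* and both loci of *Dcun1d2* were the only members with a mean of 1 FPKM or more that were listed at 0 in a library.

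With all 4 libraries no pair had both partners called. Without B1, which leaves only the shallow B2 for replicate B, both partners were called in *Dok1*-*Loxl3* and in both listings of *Tmco3* with *Dcun1d2*. The direction was the same within each pair. *Tmco3* at 1 listing and *Dcun1d2* at both were at 0 in B2, so these listings rest on low values of that library. With all libraries and a log2 difference of 0.58 there were 6 such pairs, both of these listings among them. Both partners were at 1 FPKM or more in 11 of the 12 pairs with a called partner. In 9 of these the other partner differed in the same direction, and *Dcun1d2*-*Tmco3*, with both partners at 0 in B2, was among the 9. Over the 11 pairs the median difference was 1.30 for the called partner and 0.49 in that direction for the other. Neither this count nor that of pairs with both partners called was made for the other classes of neighbours. Across the 484 pairs the Spearman correlation of the partners' B minus A differences was 0.216, beside 0.025 for A2 minus A1 and 0.113 for B2 minus B1. It was 0.199, 0.169 and 0.236 in the other classes of neighbours, so a correlation of this size was found for neighbours of every kind examined. Between technical libraries it was up to 0.206 in the other classes (same-strand neighbours, A2 minus A1). The B minus A differences had the same sign in 56.4% of head-to-head pairs and in 55.3% to 57.3% of the others. The technical differences had it in 53.7% (A2 minus A1) and 57.4% (B2 minus B1) of head-to-head pairs, and no test was made of these differences.

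**Figure D5:**
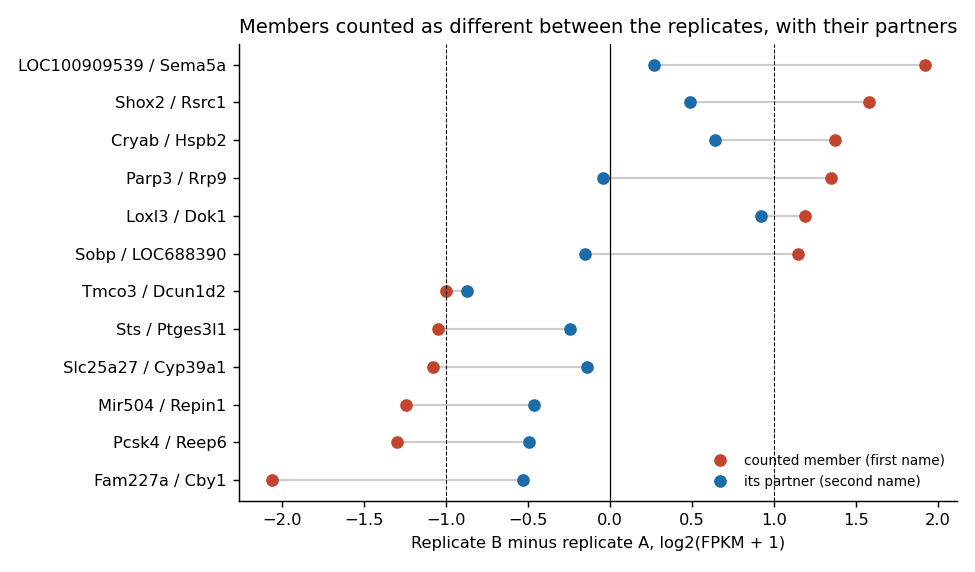
The difference between replicates B and A on the log2(FPKM + 1) scale (horizontal axis) is plotted for the 12 members called different (red) and for their partners (blue), 1 pair per line, with dashed lines at the limit of 1. No partner passed the limit, and the nearest was *Dok1* at 0.92.

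RefSeq promoters, each with 250 bases before and 50 after the start in GRCr8, were matched to 934 of the 1099 member loci that are not microRNA genes (85.0%), which gave 930 distinct windows. These were rich in CpG dinucleotides, with a median ratio of observed to expected CpG of 0.86, against 0.77 for loci at 1 FPKM or more in no head-to-head pair and 0.42 for all 27457 promoters of the table. A ratio of at least 0.6 was found in 90.4% of member windows, in 74.5% of the windows of those other expressed loci and in 36.9% of all promoters. Partners up to 500 bp apart have overlapping windows, so the windows are not independent. Taken separately, minus-strand and plus-strand members gave 91.6% and 89.3%. No test was made.

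Matches to the ETS motif CCGGAAG were found in 31.2% of member windows, in 17.3% of the windows of other loci at 1 FPKM or more and in 9.22% of all promoters. The share was 32.5% for minus-strand and 29.6% for plus-strand members. For TCTCGCGA, as between *Rps28* and *Ndufa7*, the 3 shares were 3.98%, 2.00% and 0.943%, for AAGATGGCG of YY1 6.24%, 3.71% and 1.93%, and for GCATGCGC of NRF1 7.63%, 5.10% and 2.66%. TATAAA went the other way, with 3.98%, 6.44% and 14.3%. The GC box (68.0%, 64.2% and 34.9%), CCAAT (41.2%, 37.8% and 37.7%), the CRE (4.19%, 3.35% and 1.91%) and the E-box (8.60%, 9.74% and 6.65%) completed the set.

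Levels of the members were compared by these features. Members with a CpG ratio of at least 0.6 had a median of 22.5 FPKM, and 94.6% of 845 were at 1 FPKM or more, while the 89 with a lower ratio had 9.19 FPKM and 79.8%. The medians with and without a match were 25.3 and 17.8 FPKM for the ETS motif and 36.0 and 20.1 FPKM for the YY1 motif, and all 58 members with the YY1 motif were at 1 FPKM or more. They were 21.3 and 20.5 FPKM for CCAAT, 21.5 and 19.8 FPKM for the GC box, 22.8 and 20.7 FPKM for the E-box and 20.9 FPKM both for the CRE. For the NRF1 motif they were 27.5 and 20.5 FPKM, and for TCTCGCGA 28.8 and 20.8 FPKM. With and without TATAAA the medians were 26.3 and 20.8 FPKM, while 83.8% and 93.5% were at 1 FPKM or more. These are descriptions of motif matches in 1 window per gene, and the initiation data of the study were not used here.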

How the data were processed

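Per the labels, cultured rat cortical progenitors were sequenced as 2 biological replicates with 2 technical libraries each. Alignment by the authors was with STAR and the rn6 genome, followed by stringtie, and their methods also name Rsubread and DESeq2 for FPKM. The deposited gene tables hold FPKM, TPM (the same scaled to a fixed total per library) and coverage (mean read depth per base). Depth was taken as the ratio of the deposited coverage to FPKM. Raw read counts were not analysed here, and the Start-seq samples were not used. Versions were not given in the sources used here.

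Loci were joined over the 4 tables by name, position and strand. Technical libraries were averaged within a replicate, and values are means ± SD of 2 replicates, which measure the spread between these cultures only. Ratios and differences are on the log2(FPKM + 1) scale, which understates differences of low genes. Calls between A and B required a mean of 1 FPKM, a difference of 1 and libraries that do not overlap. Pairs were named by rule: the 10 highest by geometric mean, the 5 most unequal, the 5 most equal, the 5 closest, textbook pairs, and the 3 highest members of each gene list. Some of these pairs are not reported here. Others were picked after their values were seen. Members and lists were chosen with earlier results of these data known. Python 3.11.15, pandas 2.3.3, numpy 2.4.6 and scipy 1.17.1 were used, and the calculations were tested on simulated data. Alternatives were another unit, threshold, pseudocount, scaling, distance limit and choice of loci, and leaving out replicates or libraries.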

Additional observations from a re-analysis of the deposited data

Results flagged for a closer look

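Of 94 loci in the named pairs and in the pairs with a called member, 3 had a library far from the other 3 by Dixon's criterion for 4 values. Chance alone gives such a library in about 1 in 20 groups. *Ncstn* was at 55.9 FPKM in B1, against 80.1, 80.7 and 77.3 FPKM in A1, A2 and B2, while its partner *Copa* was at 82.2 FPKM in B1. *Sema5a*, the partner of *LOC100909539*, was at 4.69 FPKM in B2, against at most 3.20 FPKM in the other libraries. *Tmco3* was listed at 0 in B2, against 9.70, 9.52 and 8.61 FPKM, and the second locus of the same name was at 0.0862 FPKM in that library. B2 is the library with the lowest depth, and the part of depth in these values was not tested.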

How the results depend on the processing

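Of 67 alternative values for the main results 39 stayed within the spread between replicates (or within 1.5 times for counts), 28 moved beyond it and 0 reversed. The share of pairs with both partners expressed (84.5%) was 92.8% and 46.4% at thresholds of 0.1 and 10 FPKM, 88.0% with TPM, 86.5% at 0 to 500 bp, 86.2% for partners in no other pair, 88.3% without microRNA genes, 83.1% to 84.3% without a biological replicate, and 84.3% to 84.6% without library A1, A2 or B1. The Spearman correlation of levels (0.256) was 0.262 at 0 to 500 bp, 0.213 for partners in no other pair, 0.148 with both partners at 1 FPKM, 0.182 without microRNA genes, 0.254 to 0.262 without a replicate, and 0.253 to 0.260 without a library. Pearson's r of log2 values was 0.277 with a pseudocount of 1 and 0.397 with 0.1. The median absolute log2 ratio (1.34) was 1.47 with TPM, 1.48 with a pseudocount of 0.1, 0.97 with both partners at 10 FPKM, 1.37 at 0 to 500 bp and also with B1 alone for replicate B, 1.35 to 1.39 without library A1, A2 or B1, and 1.35 to 1.40 without a replicate, with pairs chosen anew in each case. The correlation of the partners' B minus A differences (0.216) was 0.166 at 0 to 500 bp, 0.185 with B1 alone, and 0.296 as Pearson's r.

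The number of members called between A and B (12) was 63 at a log2 difference of 0.58 (6.16%, beside 16.5% of all loci), 4 at a mean of 10 FPKM (0.540%, beside 4.95%), and 9 to 25 when library A1, A2 or B1 was left out. It was 25 of members (2.44%, beside 8.52% of all loci) without B1, which left B2 alone for replicate B, and it was 10 without B2, where *Tmco3* and *Sobp* were no longer called. Leaving out single libraries was chosen after seeing the data, as was leaving out microRNA genes for the share (88.3%), the ratio and the correlation of differences. The causes of these shifts were not tested. No paired analysis was possible because only the RNA-seq samples, 1 group, were analysed here; partners were compared within each replicate. Without a biological replicate the difference between replicates and the calls have no value. No test was made with 2 replicates of 1 condition, the depth of B2 was 6.83 against 22.7 or more for the others, and low partners in that library are the least certain.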
